A study of Mus musculus with 12 samples.

Results

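The liver's response to a high-fat diet was compared between mice that lack Mlkl and wild-type mice, as a difference of differences. For each gene the change from normal chow to high-fat diet in Mlkl-/- livers was taken, and the same change in wild-type livers was subtracted from it. All 12 of the 12 liver libraries of the study entered, 3 in each of 4 groups: wild-type on normal chow diet (WT ND), wild-type on high-fat diet (WT HFD), Mlkl-/- on normal chow (Mlkl-/- ND) and Mlkl-/- on high-fat diet (Mlkl-/- HFD). A positive interaction value means that the gene went further up, or less far down, on the diet in Mlkl-/- than in WT, and a negative value the reverse.

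The mice began the diets at 8 to 9 weeks of age, and the high-fat food held 36% fat and gave 59% of its energy as lipid. The sample labels give 25 weeks of diet for every liver, while the study's design text gives 16 to 25 weeks. Animals were in the fed state and were picked for organ weights near the mean, and RNA was read from the 3′ ends of transcripts by QuantSeq. The labels give the genotype without naming the allele, and they do not say whether the wild-type mice were littermates.

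MLKL is the pseudokinase that carries out necroptosis, a lytic form of regulated cell death. RIPK3 phosphorylates MLKL, which then moves to the plasma membrane and permeabilises it. In the liver, prolonged high-fat feeding loads hepatocytes with triglyceride and is known to be accompanied by macrophage recruitment, activation of stellate cells and changes in sterol synthesis. An interaction asks whether that set of changes has a different size or direction once the gene is gone, which is a separate question from whether the diet or the deletion alone moves a gene.

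Mlkl itself was low but readable in every library. WT ND livers held 3.08, 3.73 and 3.01 CPM (the count relative to its library's total after TMM scaling), WT HFD livers 5.37, 7.65 and 4.24, Mlkl-/- ND livers 0.786, 0.664 and 0.790 and Mlkl-/- HFD livers 0.763, 0.433 and 1.40. Every Mlkl-/- library lay below every WT library, so the genotype labels held in all 12. The interaction of Mlkl was -0.59 ± 0.51 (log2, ± standard error; edgeR adjusted p = 0.707), so no difference in its diet response was detectable at this depth.

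The libraries held 19435391 to 32120426 counts. Sample titles carry a number after the diet, 23 or 27 on chow and 25 or 29 on high-fat diet, whose meaning the labels do not give. The lower codes made up 2 of 3 WT ND, 1 of 3 WT HFD, 1 of 3 Mlkl-/- ND and 2 of 3 Mlkl-/- HFD livers, a spread that follows the sign pattern of the interaction itself. The interaction was therefore also taken within each pair of codes. In addition, the summed level of 8 loci (Mir6236, Lars2 and 6 predicted genes) ran from 377.8 to 656.5 CPM in 6 libraries and from 3484 to 9239 CPM in Mlkl-/- ND 1, WT HFD 2, WT HFD 3 and all Mlkl-/- HFD livers. The labels do not name this measure, and it was used as a term in an alternative fit.

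Over 18098 tested genes the interaction called 0 genes at an adjusted p under 0.05 (edgeR quasi-likelihood test with Benjamini-Hochberg adjustment; percent called 0), and the smallest adjusted p was 0.338. At an unadjusted p under 0.05 there were 1889 genes (10.4% of those tested), 949 higher and 940 lower in the Mlkl-/- response. With libraries scaled by their totals alone the split was 540 higher and 1314 lower, and the median over all genes was -0.10 in place of 0.01. limma-voom also called 0, and DESeq2 called 58, of which 15 were higher and 43 lower. In WT the diet called 766 genes (4.23%), 366 higher (2.02%) and 400 lower (2.21%), and in Mlkl-/- it called 65 (0.359%), 38 higher (0.21%) and 27 lower (0.149%). Scaled by library totals alone, the WT split was 921 higher and 181 lower and the Mlkl-/- split 81 higher and 19 lower. A count of calls in one genotype and not in the other is not a test of their difference, and the interaction is that test. The median standard error of the interaction was 0.33 on the log2 scale, against 0.23 for the diet response of either genotype. Among the 10889 genes with a mean of at least 5 CPM, the 95% interval of the interaction lay within a 2-fold difference in either direction for 72.0% and within a 4-fold difference for 96.2%. P-values here measure the spread between these 3 livers per group. Single livers weighed on these counts: without Mlkl-/- ND 1, 729 genes were called in Mlkl-/-, 3278 reached the unadjusted threshold for the interaction and 4 were called for it, and without WT HFD 2, 63 genes were called in WT.

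The fitted responses of the genes called in WT were smaller in Mlkl-/- livers but mostly pointed the same way. Of the 766 genes, 669 (87.3%) had the same sign in Mlkl-/-, against 58.7% of all tested genes. Their median response was 0.92 in WT, in the direction of the call, and 0.34 in Mlkl-/-. These genes were chosen on the WT value, so the WT median is a selected one and the pair of medians is a description. The same holds the other way round: the 65 genes called in Mlkl-/- had a median of 1.5 there and of 1.06 in WT, and 63 of 65 had the same sign. Across all tested genes the Spearman correlation between the WT and Mlkl-/- responses was 0.234, and it was 0.349 at a mean of 5 CPM or more. This correlation is across genes, which are not independent replicates, and the 2 responses share no library.

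The diet called 37 genes in both genotypes, 4.83% of the WT calls and 56.9% of the Mlkl-/- calls. The interaction called 0 of them, as it called 0 of all 18098 tested genes. They were picked for a call in both genotypes, a choice that favours similar responses. In these genes 21 rose and 16 fell in both genotypes, and the interaction ranged from -0.82 to 1.29. For 35 of the 37 the 95% interval included 0, and for 16 it lay within a 2-fold difference. Osbpl3, an oxysterol-binding protein family member, rose by 2.96 in WT and 2.60 in Mlkl-/- (log2), from 5.43, 6.83 and 4.81 to 37.4, 58.5 and 36.4 CPM and from 3.68, 2.61 and 1.78 to 14.5, 19.4 and 14.9 CPM. The chow and high-fat livers did not overlap in either genotype. Fads1, the delta-5 fatty acid desaturase, rose by 1.23 and 1.25, and its interaction was 0.02 with an interval of -0.49 to 0.54. Tap1, the peptide transporter of antigen presentation, rose by 0.94 and 1.05, with an interaction of 0.11 (-0.32 to 0.54). Cyp3a11, a major drug-metabolising P450, had fitted diet values of -2.69 in WT and -3.14 in Mlkl-/-, both called. Its interaction interval ran from -1.90 to 1.00, and near-identical Cyp3a copies can share its reads. For Fads1 and Tap1 the intervals exclude a 2-fold difference between the genotypes, while for Cyp3a11 nearly a 4-fold lower response remained inside the interval.

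The genes with the smallest interaction p-values had a diet response of opposite sign, or near 0, in Mlkl-/-. The 12 leading lower genes had interaction values from -3.76 to -0.98 and unadjusted p from 2.50e-05 to 0.000508, and the 12 leading higher genes had values from 0.81 to 2.71 and p from 0.000355 to 0.00139. Their adjusted p was 0.338 in all 24. In each of the 24, every difference between a high-fat and a chow liver in one genotype lay beyond every such difference in the other. Such separation occurred in 667 of 18098 tested genes (3.69%), 348 above (1.92%) and 319 below (1.76%). DESeq2, run on the same counts, called 12 of the leading lower and 9 of the leading higher genes, and 58 of all 18098 tested genes. Its calls among the 24 follow in part from how they were picked and are not separate support. These genes were picked by p from the whole table, so their p-values are small by selection and are given for size and order only.

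**Figure D1:**
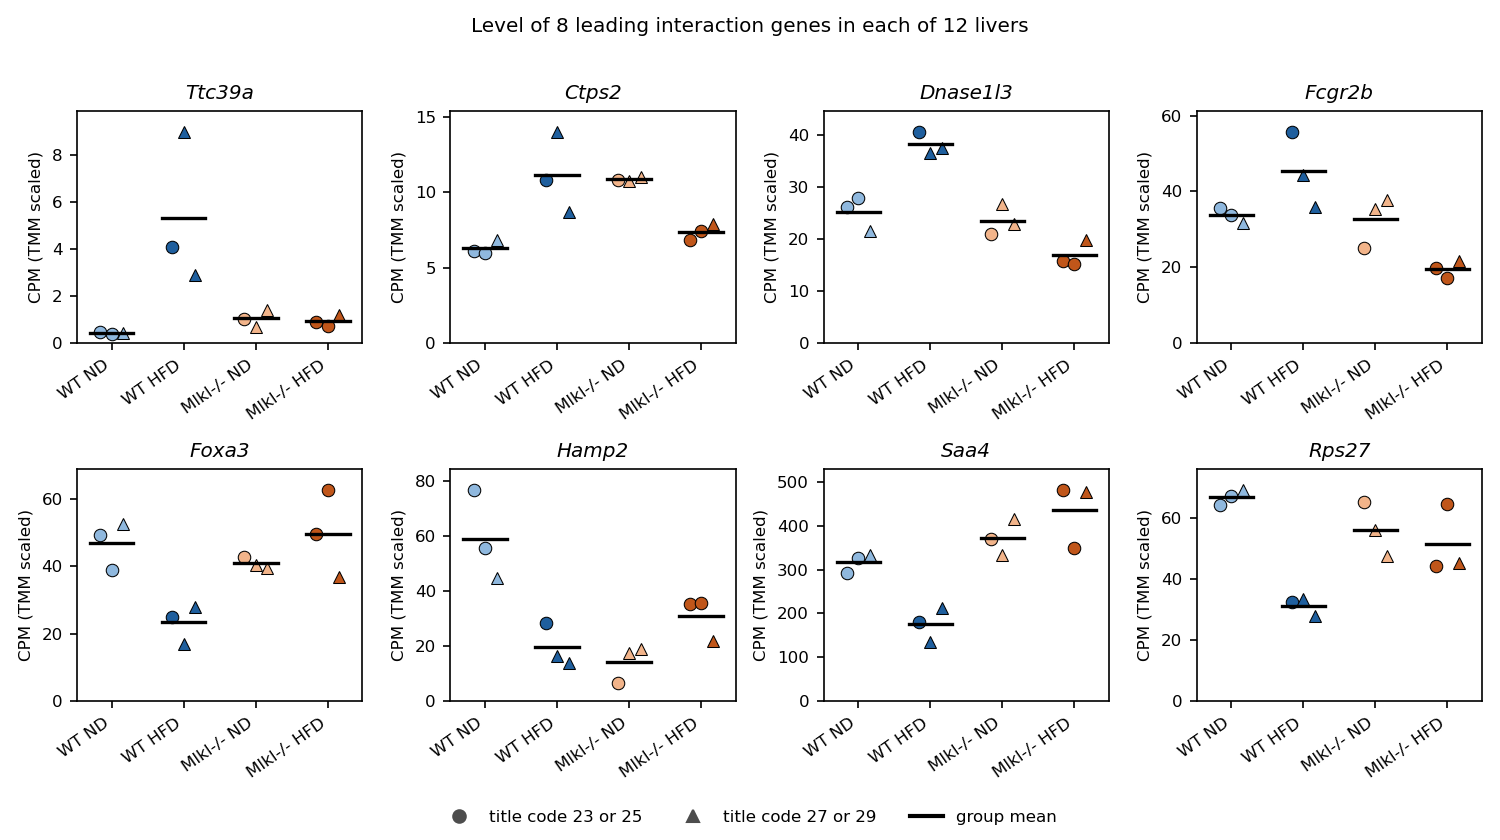
CPM (vertical axes, linear from 0) of 8 leading interaction genes in each of the 12 livers, by group (horizontal axes); circles are title codes 23 or 25, triangles 27 or 29, black lines group means. In Ctps2, Mlkl-/- chow livers sit at the level of WT high-fat livers and the diet values run in opposite directions, while in Ttc39a only the WT HFD livers stand up.

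Ttc39a, a tetratricopeptide repeat gene, had the smallest p-value. WT ND livers held 0.470, 0.393 and 0.426 CPM and WT HFD livers 4.09, 8.98 and 2.89 CPM, a fitted WT diet value of 3.62 (adjusted p = 0.00291, edgeR). Mlkl-/- livers held 1.03, 0.664 and 1.42 CPM on chow and 0.906, 0.722 and 1.20 CPM on high-fat diet. The 3 WT HFD livers were above all 9 others, and the 2 Mlkl-/- groups overlapped. The interaction was -3.76 ± 0.63 (adjusted p = 0.338), and the gene lies at chr4:109406623-109444745 on GRCm38.

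Several leading lower genes already stood high on chow in Mlkl-/- livers. Ctps2, a CTP synthase of pyrimidine nucleotide synthesis, was at 6.11, 5.94 and 6.84 CPM in WT ND and 10.8, 10.8 and 11 in Mlkl-/- ND. On high-fat diet the order turned, with 10.8, 14 and 8.68 in WT and 6.82, 7.46 and 7.87 in Mlkl-/-. The 2 genotypes did not overlap on either diet. Tmed3, a p24 family member of the secretory pathway, had the same layout: 9.53, 9.53 and 10.5 and 17.6, 16.4 and 19.1 CPM on chow against 11.4, 14.9 and 13.2 and 11.4, 11 and 12.9 on high-fat diet, although the high-fat groups overlapped. Cav2, a caveolin, was called lower with diet in Mlkl-/- (-1.51, adjusted p = 0.0458) and had 0.40 in WT. Its chow livers held 4.79, 2.70 and 6.29 CPM in WT and 10.5, 10.7 and 10.1 CPM in Mlkl-/-. In these 3 genes the chow livers of the genotypes did not overlap.

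In Maged2 and Vps8 the WT HFD livers stood above all others. Maged2, a MAGE family gene, was at 3.72, 4.22 and 3.70 CPM in WT ND, 9.93, 9.47 and 6.56 in WT HFD, 5.40, 5.54 and 4.19 in Mlkl-/- ND and 4.25, 3.51 and 3.63 in Mlkl-/- HFD, with an interaction of -1.57 ± 0.30. Vps8, a subunit of the endosomal CORVET complex, was at 5.13, 5.35 and 4.88, 9.33, 9.29 and 9.11, 6.63, 6.78 and 7.11 and 5.82, 5.15 and 6.68 CPM in the same order. Both were called higher with diet in WT, by 1.16 and 0.85. Hltf, a helicase-like factor of DNA damage tolerance, was at 10.6, 8.79 and 10.5, 15.1, 15.9 and 17.5, 14.3, 16.5 and 15.7 and 13, 10.7 and 14.3 CPM in that order, with an interaction of -0.98 ± 0.22, and was called higher in WT (0.69). Atr, the kinase of the replication stress checkpoint, was at 10.4, 9.18 and 11.7, 16.5, 16.5 and 13.9, 11.5, 15 and 15.2 and 8.73, 8.81 and 11.5 CPM, with -1.10 ± 0.24, and was not called in WT (adjusted p = 0.0682). In these 2 genes the WT HFD livers overlapped the Mlkl-/- chow livers, and for Hltf the chow livers of the genotypes did not overlap. The 4 remaining leading lower genes, Dnase1l3, Fcgr2b, Flt4 and Col6a3, belong to the cell type lists described further on.

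Among the leading higher genes, several were lowest in WT HFD livers. Foxa3, a liver-enriched forkhead transcription factor, was at 49.2, 38.9 and 52.6 CPM in WT ND and 25.1, 17 and 27.9 in WT HFD, called lower by -1.01. Mlkl-/- livers held 42.9, 40.4 and 39.4 on chow and 49.6, 62.7 and 36.7 on high-fat diet, where the groups overlapped, and the interaction was 1.29 ± 0.29. Saa4, a constitutive serum amyloid A apolipoprotein, was at 293, 326 and 333 and 181, 134 and 212 CPM in WT and 370.0, 332 and 415 and 482, 351 and 477 in Mlkl-/-. The WT HFD livers were below all 9 others for Saa4 and for Foxa3. Apoc1, an apolipoprotein of triglyceride-rich particles, was at 2191, 2752 and 2806 CPM in WT ND, 1786, 1297 and 1580 in WT HFD, 1980, 1868 and 1569 in Mlkl-/- ND and 2077, 2410 and 1941 in Mlkl-/- HFD. Its WT diet value was -0.73 (called) and its interaction 0.98 ± 0.25. Aspg, an asparaginase, had chow livers at 226, 239 and 242 CPM in WT and 124, 166 and 147 in Mlkl-/-, and its high-fat livers at 167, 164 and 157 and 213, 214 and 160.1. Aspg is therefore another gene with a genotype gap on chow. Rilpl2, Kctd15, Nab2, Cwf19l1, Zfp524 and S100a1 complete the 12, with interactions of 1.02, 1.24, 1.36, 0.96, 1.18 and 0.81. Of these 6, Kctd15 (-0.90) and S100a1 (-0.61) were called lower with diet in WT.

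Hamp2 and Hamp, the mouse hepcidin genes, had the largest positive values among these genes, Hamp coming 1 place after the 12 by p-value. Hepcidin is the liver hormone that limits iron export through ferroportin. Hamp2 was at 76.6, 55.6 and 44.7 CPM in WT ND livers, 28.3, 16.3 and 13.5 in WT HFD, 6.48, 17.5 and 18.7 in Mlkl-/- ND and 35, 35.6 and 21.8 in Mlkl-/- HFD, with an interaction of 2.71 ± 0.58 (adjusted p = 0.338). Hamp was at 755, 672 and 594, 307, 142 and 178, 86.9, 273 and 293 and 373, 436 and 300.4 CPM in that order, with an interaction of 2.46 ± 0.58 (adjusted p = 0.338). For both, the WT chow livers were the highest of all 12, and the Mlkl-/- chow livers lay below the Mlkl-/- high-fat livers. Hamp was called lower with diet in WT (-1.69, adjusted p = 0.0471), and neither was called in Mlkl-/-. The pair are near-identical copies and counting could split their reads, so they are not separate observations. In the edgeR fit to all 12 libraries neither hepcidin gene was called for the interaction. DESeq2 on the same 12 libraries called both (adjusted p = 0.000501 for Hamp2 and 0.00397 for Hamp), as did edgeR in the fit that held the 8-locus level. Neither was called by limma-voom, with the title code as a term, or when any 1 library was left out. Within the lower title codes Hamp was at 3.44 and Hamp2 at 3.67, and within the higher codes at 1.98 and 1.85. The fits within codes leave 1 liver in some groups.

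Genes called for diet in only one genotype show how far a call and an interaction can part. Ephb2, an ephrin receptor, was called in WT (5.39) with an interaction of -4.33 ± 1.21 (adjusted p = 0.384), and stood at 4.93, 9.38 and 1.49 CPM in WT HFD against 0.620, 0.193 and 0.412 in Mlkl-/- HFD. Apoa4, an apolipoprotein known to follow hepatic fat load, was at 173, 223 and 83.1 CPM in WT ND and 3175, 4768 and 1919 in WT HFD, and at 484, 118 and 194 and 1980, 1331 and 1495 in Mlkl-/-. It was called in WT (4.36) and not in Mlkl-/- (2.59, adjusted p = 0.0989), although every high-fat liver of both genotypes was above every chow liver. Its interaction was -1.77 ± 0.77 (adjusted p = 0.462). Asns, asparagine synthetase, was called lower in WT (-4.54), had -2.98 in Mlkl-/- and an interaction of 1.56 ± 1.21. Here the 2 genotypes gave values of the same sign and the interaction was smaller than 2 standard errors.

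Acot1, a cytosolic acyl-CoA thioesterase and PPAR-alpha target, was called in Mlkl-/- alone. Mlkl-/- ND livers held 13.2, 19.1 and 23.5 CPM and Mlkl-/- HFD livers 68.2, 38.2 and 47.9, against 50.5, 48.8 and 43.7 and 48.7, 33.9 and 63.3 in WT. The 3 Mlkl-/- chow livers were below all 9 others, and the high-fat groups overlapped. The interaction was 1.44 ± 0.36 (adjusted p = 0.338). Acot2, Acot5 and Mfsd2a, also called in Mlkl-/- alone, had interactions of 0.72, 1.12 and 1.32. Mfsd2a, a lysophosphatidylcholine transporter, was at 44.5, 31.1 and 50.9 CPM in Mlkl-/- ND and 97.2, 140.4 and 90.5 in WT ND, so its chow groups did not overlap either. Acot1 and Acot2 are close paralogs whose reads may be shared.

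**Figure D2:**
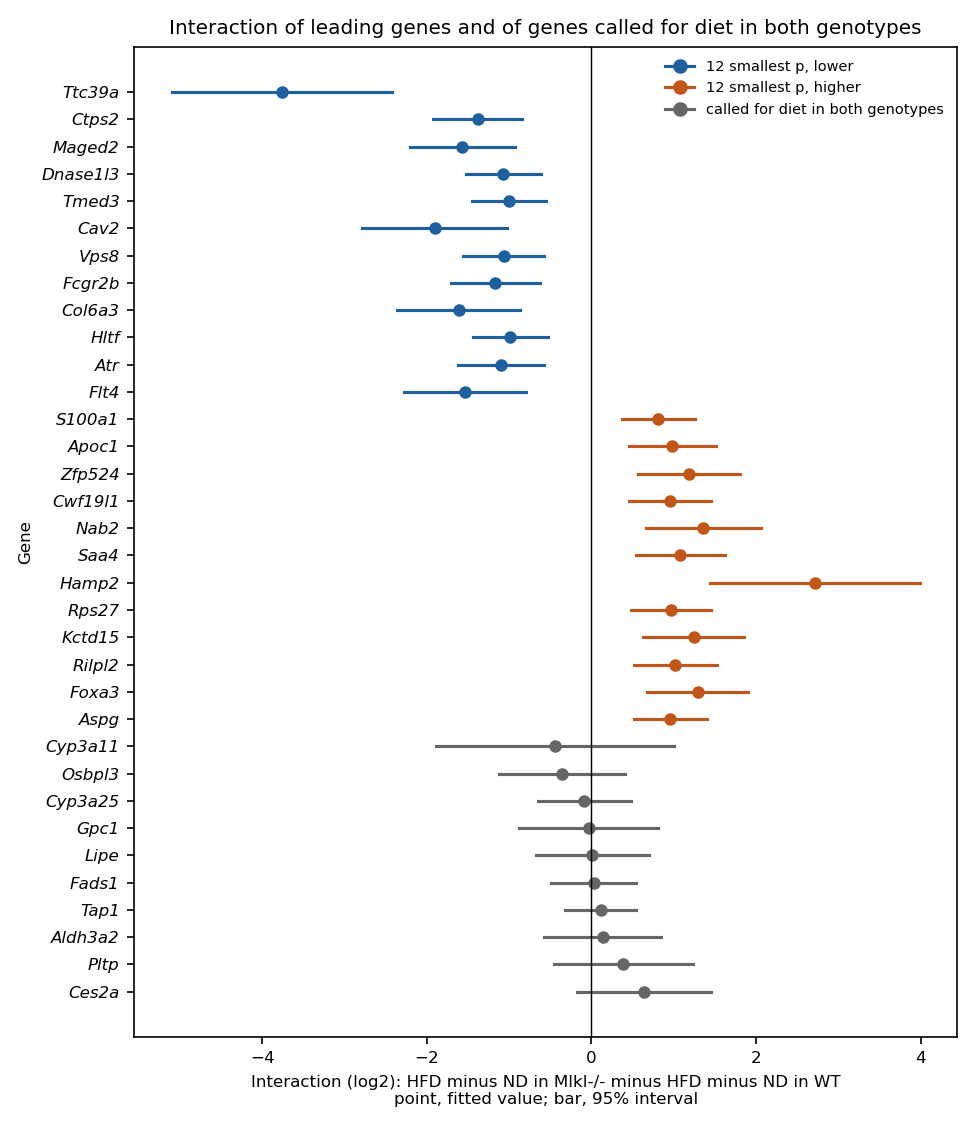
Fitted interaction (points; log2 of the diet response in Mlkl-/- minus that in WT) with 95% intervals (bars) for the 24 leading genes and 10 genes called for diet in both genotypes. Intervals of the leading genes, chosen by small p, leave out 0. Intervals of the 10 others, picked from the 37 genes called in both genotypes, include 0. Over all 37 this held for 35.

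The gene lists were read by counts and medians. Over all tested genes the median interaction was 0.01, and 49.2% of genes were negative. Of the 35 lists, 20 had a negative and 15 a positive median, and edgeR called 0 of their 689 tested genes for the interaction, DESeq2 17. The lists farthest below the median of all genes were those of non-parenchymal cells. The list farthest above it was also one of non-parenchymal cells, the lymphocyte markers (0.85). Periportal hepatocyte genes (0.60) and hepatocyte secreted proteins (0.39) lay above it too.

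**Figure D3:**
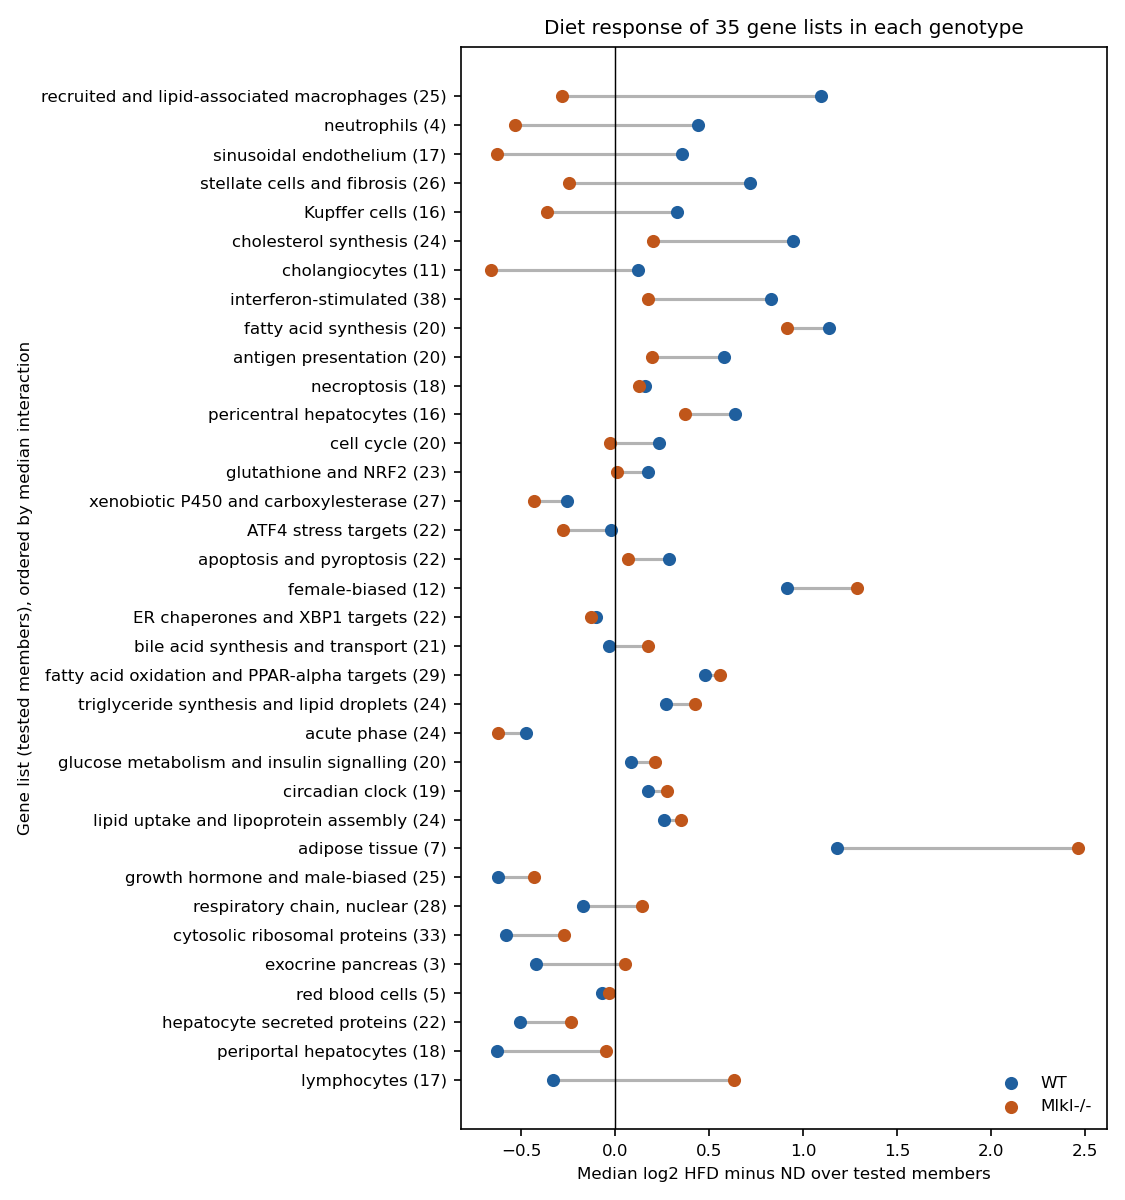
Median log2 change from chow to high-fat diet over the tested members of each of 35 gene lists, in WT (blue) and Mlkl-/- (orange), ordered by the median interaction. Recruited macrophage genes have medians of 1.09 in WT and -0.28 in Mlkl-/-, whereas fatty acid synthesis genes have medians of 1.14 and 0.92.

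Markers of recruited and lipid-associated macrophages had the lowest median interaction, -1.61 over 25 tested members. Of these 24 were negative, 15 with an unadjusted p under 0.05 (5.19% of all tested genes were lower at that level), and the list's median diet value was 1.09 in WT and -0.28 in Mlkl-/-. In WT 6 members were called higher with diet (2.02% of all tested genes were). In Mlkl-/- edgeR and DESeq2 called 0, where edgeR called 0.21% of all tested genes higher. At an unadjusted p under 0.05, 2 members were higher in Mlkl-/- (6.95% of all tested genes were). The list score, which is the mean deviation of log2 CPM from each gene's mean over the 12 livers, was -0.12, -0.31 and -0.49 in WT ND and 1.12, 1.31 and -0.18 in WT HFD. It was -0.21, -0.08 and 0.03 in Mlkl-/- ND and -0.69, -0.50 and 0.12 in Mlkl-/- HFD. WT HFD 1 and 2 thus stood above all other livers, while WT HFD 3 lay within the range of the chow livers.

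Cd63, a tetraspanin of late endosomes, was at 3.25, 3.49 and 2.75 CPM in WT ND, 6.81, 16.5 and 3.71 in WT HFD, 4.86, 4.12 and 3.47 in Mlkl-/- ND and 2.67, 2.60 and 3.46 in Mlkl-/- HFD. Its interaction was -2.03 ± 0.57 (adjusted p = 0.384). Mmp12, macrophage elastase, was at 13.1, 8.83 and 1.59 CPM in WT HFD livers and no higher than 1.61 CPM in any liver of the other groups, with an interaction of -3.40 ± 1.00. Gpnmb, a marker of lipid-laden macrophages, was at 7.25, 4.76 and 0.820 CPM in WT HFD and at most 0.618 elsewhere, with an interaction of -3.70 ± 1.15. In both, the lowest WT HFD liver was the third one, close to or inside the range of the Mlkl-/- HFD livers. The abundant members differed: Lyz2, lysozyme of myeloid cells, had -0.99 (adjusted p = 0.407), and Ctsd, a lysosomal protease expressed by most cells, had -0.08 (adjusted p = 0.910).

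Markers of Kupffer cells, the resident macrophages, had a median of -0.82 over 16 members, of which 15 were negative. There were 8 lower at an unadjusted p under 0.05 (5.19% of all tested genes were). Csf1r, the receptor for the macrophage growth factor CSF1, was at 32.6, 28.8 and 21.6 CPM in WT ND, 57, 54.2 and 38.3 in WT HFD, 18.8, 34 and 36.3 in Mlkl-/- ND and 19.6, 18.7 and 31.2 in Mlkl-/- HFD. The WT HFD livers were the 3 highest, and the interaction was -1.21 ± 0.38. Clec4f, a lectin used as a defining Kupffer cell marker, was at 61.9, 65.4 and 49.1, 109, 80.2 and 76.4, 41.1, 66.8 and 75.8 and 40.2, 36.1 and 66.1 CPM in the same order, with -0.96 ± 0.36. Cd163 and Cd5l had interactions of -1.26 and -1.40, and Slc40a1, the iron exporter ferroportin, had -0.01.

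Sinusoidal endothelium markers had a median interaction of -0.94. All 17 tested members were negative, and 13 had an unadjusted p under 0.05 (5.19% of all tested genes were lower at that level). For 5, diet differences did not overlap between genotypes (1.76% of all tested genes lay below in that way). The list's median diet value was 0.35 in WT and -0.63 in Mlkl-/-, so the fitted responses had opposite signs. Its score was 0.34, 0.25 and -0.22 in WT ND, 0.78, 0.39 and 0.15 in WT HFD, -0.40, 0.25 and 0.20 in Mlkl-/- ND and -0.77, -0.60 and -0.36 in Mlkl-/- HFD. On high-fat diet the genotypes did not overlap, and on chow they did.

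Dnase1l3, a secreted DNase made by sinusoidal endothelial and myeloid cells, was at 26.2, 27.9 and 21.6 CPM in WT ND, 40.6, 36.7 and 37.6 in WT HFD, 21, 26.8 and 22.9 in Mlkl-/- ND and 15.8, 15.2 and 19.9 in Mlkl-/- HFD. The WT HFD livers were the 3 highest and the Mlkl-/- HFD livers the 3 lowest of the 12, and the interaction was -1.07 ± 0.21 (adjusted p = 0.338). Fcgr2b, the inhibitory Fc receptor of these cells, was at 35.6, 33.8 and 31.7, 55.6, 44.3 and 35.9, 25, 35.2 and 37.8 and 19.8, 17.1 and 21.7 CPM, with -1.17 ± 0.25. Flt4, the receptor VEGFR3, was at 19.4, 16.1 and 10.9, 27.9, 28.5 and 20.4, 10.1, 18.4 and 15.4 and 7.39, 7.41 and 10.2 CPM, with -1.54 ± 0.35. For Fcgr2b as for Flt4, the Mlkl-/- HFD livers were below or at the bottom of the chow range. The abundant members Aqp1, a water channel, and Eng, endoglin, had -0.94 ± 0.26 and -0.39 ± 0.28. DESeq2 called 4 members of the list for the interaction, all lower (it called 43 of all 18098 tested genes lower). In the Mlkl-/- diet response 12 of the 17 were lower at an unadjusted p under 0.05 (6.64% of all tested genes were), of which edgeR called 0 after adjustment and DESeq2 3.

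Stellate cell and fibrosis genes had a median of -0.92 over 26 members, 21 of them negative. At an unadjusted p under 0.05, 13 were lower (5.19% of all tested genes were). Col6a3, a collagen VI chain, was at 9.66, 7.46 and 6.65 CPM in WT ND, 17.7, 13.2 and 9.50 in WT HFD, 9.23, 9.12 and 9.52 in Mlkl-/- ND and 3.58, 5.10 and 6.76 in Mlkl-/- HFD, with -1.62 ± 0.35 (adjusted p = 0.338). Lum, the matrix proteoglycan lumican, was called higher with diet in WT (1.20), had 0.04 in Mlkl-/-, and an interaction of -1.16 ± 0.33. Dcn (decorin) had -0.50 ± 0.23 and Ecm1 0.25 ± 0.23, so the abundant members did not share one sign in all 12 libraries (Ecm1 was at -0.24 within the higher title codes). The list score was 0.84, 0.76 and -0.14 in WT HFD and -0.76, -0.16 and -0.01 in Mlkl-/- HFD. As for macrophages, WT HFD 3 lay inside the range of the other groups.

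Together, the 4 lists of macrophages, Kupffer cells, stellate cells and sinusoidal endothelium held 84 distinct tested genes, of which 77 were negative. At an unadjusted p under 0.05 there were 49 lower and 0 higher. Over all tested genes 49.2% were negative, and at that level 5.19% were lower and 5.24% higher. The lists of lymphocytes, neutrophils and cholangiocytes were not pooled. Each of the 4 pooled lists had a negative median, so the counts over their 84 genes follow in part from that choice. In summed raw CPM of these genes, WT ND livers held 1942, 1728 and 1443, WT HFD livers 3109, 2893 and 1948, Mlkl-/- ND livers 1351, 1702 and 1738, and Mlkl-/- HFD livers 1287, 1200 and 1672. WT HFD 1 and 2 were above all others, and WT HFD 3 was next to the highest WT ND liver. In whole-liver RNA, fewer cells of a type and less RNA per cell cannot be told apart. The members of a list come from the same livers and are not independent.

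**Figure D4:**
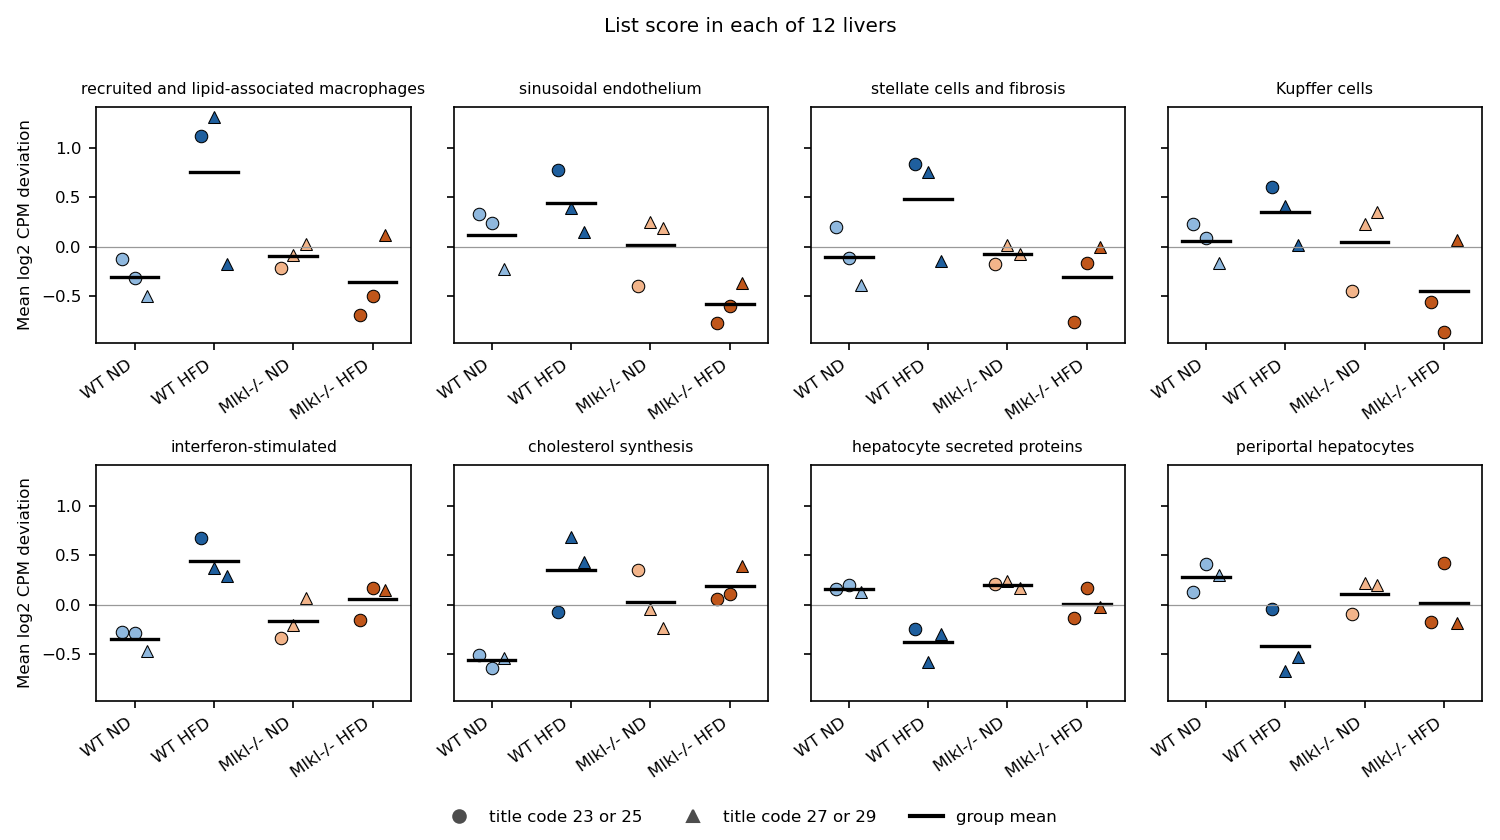
Mean deviation of log2 CPM from each gene's mean (vertical axes) for 8 gene lists in each of the 12 livers by group; circles are title codes 23 or 25, triangles 27 or 29, black lines group means. The 4 upper panels hold non-parenchymal lists, in which WT HFD 1 and 2 lie highest; in the endothelial panel the high-fat groups do not overlap.

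Other cell type lists were smaller or rested on few livers. Cholangiocyte markers had a median of -0.62 over 11 tested members, 7 of them negative, and of -0.11 without Mlkl-/- ND 2 and -0.24 within the lower title codes. Krt8 and Krt18, keratins of bile duct cells that stressed hepatocytes also express, had -1.92 and -1.30, but Mlkl-/- ND 1 stood far above the rest for Krt8, at 1008 CPM against 174 to 391 in the 11 others. Without that library, which also had the highest 8-locus level at 9239 CPM, Krt8 was at -1.12 and Krt18 at -0.86, and with the 8-locus term in all libraries they were at -1.61 and -1.14. Anxa5 was called higher in WT (1.73), with an interaction of -1.55 ± 0.43. Neutrophil markers had a median of -1.11 over only 4 tested members, S100a9 among them at -1.25 (adjusted p = 0.478), with no liver above 4.42 CPM. The neutrophil median was -0.45 without WT HFD 2, -0.41 once the title code was a term, and -0.13 within the lower codes. Lymphocyte markers had a positive median, 0.85 over 17 members, and the widest single values were those of immunoglobulin genes. Igkc, the kappa light chain, was at 72.1, 6.87 and 4.81 CPM in WT ND and 4.29, 58.1 and 30.8 in Mlkl-/- HFD, and outside WT ND 1, Mlkl-/- HFD 2 and Mlkl-/- HFD 3 no liver exceeded 8.77 CPM. Its interaction of 5.38 ± 1.70 therefore rested on these 3 livers. Without WT ND 1 the lymphocyte median was 0.13, and within the lower and higher title codes it was 2.08 and -0.07.

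Markers of adipose tissue, red cells and exocrine pancreas, which a liver sample could carry over, had medians of 0.24, 0.37 and 0.34 over 7, 5 and 3 tested members. Within the higher title codes these medians were -0.24, -0.86 and -0.21, and within the lower codes 4.71, 0.72 and 0.39. The adipose median was 1.03 with the code as a term, 1.15 with the 8-locus term and -0.10 without WT ND 2, and the red cell median was -0.15 without Mlkl-/- ND 3. Cfd, the adipocyte protease adipsin, was at 4.74, 3.34 and 1.87 CPM in WT ND, 0.521, 8.92 and 10.4 in WT HFD, 0.884, 0.310 and 0.158 in Mlkl-/- ND and 0.525, 5.49 and 7.46 in Mlkl-/- HFD. On chow the genotypes did not overlap for Cfd, and on high-fat diet they did. The adipose list score was lowest of all 12 in the 3 Mlkl-/- ND livers, at -1.01, -1.16 and -1.39.

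Cholesterol synthesis had a median of -0.71 over 24 members, of which 22 were negative, 12 with an unadjusted p under 0.05 (5.19% of all tested genes were lower at that level). The list's median diet value was 0.95 in WT and 0.20 in Mlkl-/-, with 14 members called higher in WT (2.02% of all tested genes were). In Mlkl-/- edgeR and DESeq2 called 0, with 3 higher at an unadjusted p under 0.05 (6.95% of all tested genes were). Idi1, isopentenyl diphosphate isomerase, was at 90.1, 70.7 and 109.8 CPM in WT ND and 103, 221 and 217 in WT HFD, and at 272, 223 and 207 and 154, 128 and 207 in Mlkl-/-. Msmo1, a sterol C4-methyl oxidase, was at 71.2, 65.8 and 74.7, 97.8, 175 and 172, 219.8, 134 and 131 and 106, 150.2 and 167 CPM in the order WT ND, WT HFD, Mlkl-/- ND, Mlkl-/- HFD. For both genes every Mlkl-/- chow liver was above every WT chow liver, and the high-fat groups overlapped. Interactions were -1.52 ± 0.39 (adjusted p = 0.338), -1.27 ± 0.35 (adjusted p = 0.371) and, for mevalonate kinase Mvk, -1.18 ± 0.32 (adjusted p = 0.338). The abundant member Sc5d, sterol C5-desaturase, had -0.38 ± 0.26. The list score was -0.50, -0.64 and -0.54 in WT ND, 0.35, -0.04 and -0.24 in Mlkl-/- ND, -0.07, 0.68 and 0.44 in WT HFD and 0.05, 0.11 and 0.39 in Mlkl-/- HFD. The WT chow livers were the 3 lowest of the 12, and the high-fat groups overlapped. For the endothelial list it was the high-fat groups that did not overlap.

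In fatty acid synthesis 13 of 20 members were negative, the median was -0.30, and the median diet values were 1.14 in WT and 0.92 in Mlkl-/-. The median turned to 0.04 without WT HFD 2 and to 0.21 within the lower title codes, and was -0.60 within the higher. Scd1, the stearoyl-CoA desaturase, had diet values of 0.97 and 1.14 and an interaction of 0.17 ± 0.39, with the call missed in each genotype. Mlxipl, which encodes the carbohydrate-responsive factor ChREBP, had 0.96 ± 0.27. Lists of triglyceride synthesis, fatty acid oxidation, lipid uptake, bile acid, glucose, xenobiotic, glutathione, ER chaperone, ATF4, circadian, cell cycle, pericentral, antigen presentation, acute phase and sex-biased genes had medians between -0.24 and 0.24. Some of these medians moved in other fits. The growth hormone and male-biased median was 0.81 within the lower title codes, 0.09 within the higher and 1.13 without WT HFD 3. The acute phase median was -0.29 within the lower codes and 0.75 within the higher.

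Interferon-stimulated genes had a median of -0.44 over 38 members, 32 of them negative and 13 with an unadjusted p under 0.05. Of all tested genes 5.19% were lower at that level. Diet differences did not overlap between genotypes for 7, all lower (1.76% of all tested genes lay below in that way). In WT 13 members were called higher with diet (2.02% of all tested genes were). In Mlkl-/- edgeR called 0 and DESeq2 1, with 6 higher at an unadjusted p under 0.05 (6.95% of all tested genes were). The median diet values were 0.83 and 0.18. Gbp3, a guanylate-binding protein, was at 3.76, 4.52 and 3.37, 12.3, 9.74 and 8.34, 3.88, 4.83 and 5.77 and 4.39, 5.49 and 5.15 CPM in the order WT ND, WT HFD, Mlkl-/- ND, Mlkl-/- HFD, with -1.33 ± 0.31 (adjusted p = 0.338). Ifit2, which binds viral RNA, had -1.93 ± 0.46 (adjusted p = 0.338). The 2 most abundant members did the opposite in sign, Iigp1 at 0.25 ± 0.24 and Bst2 at 0.22 ± 0.22, so the pattern did not cover the whole list (Bst2 was at -0.04 within the lower title codes).

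The promoters of the interferon list are shown because 13 of its members rose together in WT. Interferon acts on many of its targets through the interferon-stimulated response element, searched here as GAAANNGAAA on both strands in the 250 bases before each RefSeq start (GRCm38.p6). It was found for 16 of the 28 members with a promoter in the table, in 16 of 31 windows (51.6%), against 974 of 32817 windows of all genes (2.97%). The list was made of interferon-stimulated genes, so a share above that of all genes was likely from the start. Ifit1 (0.41), Bst2 (0.22) and Stat2 (0.09) also held a match and had positive interactions, while the other members with a match were negative. The stretches below show the first match in capitals in the 3 matched members with the smallest interaction p. Gbp3 and Oas1a each held 2 matches, and the second, which overlaps the first, is not marked. These members are Gbp3 (-1.33), Oas1a (-1.50) and Oas3 (-1.92), the last 2 being oligoadenylate synthetases. They lie at chr3:142559974-142560033 (plus strand), chr5:120907526-120907570 (minus) and chr5:120777700-120777759 (minus), each 5′ to 3′ along the gene.
Gbp3: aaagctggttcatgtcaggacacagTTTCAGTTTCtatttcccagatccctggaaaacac
Oas1a: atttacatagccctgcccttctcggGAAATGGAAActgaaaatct
Oas3: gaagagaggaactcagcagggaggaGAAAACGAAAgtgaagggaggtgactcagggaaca
In Gbp3 the marked match is on the opposite strand, so the capitals are its reverse complement. A sterol response element searched as TCACNCCAC was found in 1 of 19 windows (5.3%) of the cholesterol list against 1.05% of all windows. The one match was in Hmgcs1, HMG-CoA synthase, at chr13:119690189-119690247 (plus strand), a gene with an interaction of -1.85 ± 0.54.
Hmgcs1: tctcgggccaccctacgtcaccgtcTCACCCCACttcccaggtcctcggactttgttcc
A match of letters describes the sequence only and does not show binding.

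Periportal hepatocyte genes had a median of 0.60 (0.35 without Mlkl-/- HFD 2), with all 18 members positive and 5 at an unadjusted p under 0.05 (5.24% of all tested genes were higher at that level). Their median diet value was -0.63 in WT and -0.05 in Mlkl-/-. Igfals, the acid-labile subunit that carries IGF1, had 1.01 ± 0.32 (adjusted p = 0.399), and Arg1, arginase of the urea cycle, had 0.68 ± 0.27. Cps1, the first urea cycle enzyme, was at 3225, 3579 and 3252 CPM in WT ND, 2617, 1085 and 1618 in WT HFD, 2750, 4636 and 4701 in Mlkl-/- ND and 2024, 3373 and 2047 in Mlkl-/- HFD. Its groups overlapped and its interaction was 0.22 ± 0.43.

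Hepatocyte secreted proteins had a median of 0.39, with 18 of 22 positive. Serpina1c, an alpha-1-antitrypsin gene with near-identical copies, was called lower with diet in WT (-1.35), with an interaction of 0.81 ± 0.32. Apoh (beta-2-glycoprotein I) had 0.49 ± 0.21 and Alb (albumin) 0.55 ± 0.30. Cytosolic ribosomal protein genes had a median of 0.34, with 30 of 33 positive. The ribosomal median was 0.16 without Mlkl-/- ND 3 and 0.54 without Mlkl-/- ND 1, 0.18 once the title code was a term, and 0.15 within the lower codes. Their 13 calls in WT were all lower (2.21% of all tested genes were called lower). In Mlkl-/- edgeR called 0 and DESeq2 1, with 8 lower at an unadjusted p under 0.05 (6.64% of all tested genes were). Rps27 was at 64.4, 67.2 and 69.1 CPM in WT ND, 32.4, 33.3 and 27.8 in WT HFD, 65.1, 55.9 and 47.5 in Mlkl-/- ND and 44.4, 64.4 and 45.2 in Mlkl-/- HFD, so the WT HFD livers were the 3 lowest. Nuclear genes of the respiratory chain had a median of 0.33, with 26 of 28 positive (0.14 within the higher codes), led by Cox8a (0.73 ± 0.21) and Cox5b (0.72 ± 0.21), both cytochrome c oxidase subunits.

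Lists of cell death genes, among them necroptosis, the pathway of the deleted gene, had medians close to that of all genes. The 18 necroptosis genes, Mlkl itself (-0.59) among them, had a median of -0.13, 11 negative and 7 positive. Of the 18, only 1 had an unadjusted p under 0.05, a share near that of all tested genes (5.19% were lower at that level). This was Tnfaip3, the ubiquitin-editing inhibitor A20 that restrains TNF signalling and necroptosis. It was at 2.91, 2.50 and 2.13 CPM in WT ND, 6.93, 7.25 and 4.58 in WT HFD, 2.60, 2.26 and 2.25 in Mlkl-/- ND and 2.24, 3.37 and 2.31 in Mlkl-/- HFD. It was called higher in WT (1.32), and its interaction was -1.17 ± 0.36 (adjusted p = 0.392), with the WT HFD livers above all 9 others. Ripk3, the kinase upstream of MLKL, was at or below 1.51 CPM in every liver and had -1.08 ± 0.85. Cflar, the caspase-8 regulator cFLIP, had -0.44 ± 0.23. The 22 apoptosis and pyroptosis genes had a median of -0.05, with Bid, a BH3-only activator, at 0.61 ± 0.23, and Pmaip1 and Apaf1 at -1.61 and -1.11, both from genes under 6 CPM.

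Most of these list medians kept their sign when the title codes were taken into account. With the code as a term the macrophage median was -1.50, the endothelial -0.97, the stellate -1.02, the Kupffer -0.77 and the cholesterol -0.66. Within the lower codes these were -1.46, -0.78, -0.98, -0.70 and -0.66, and within the higher codes -1.31, -1.09, -0.67, -0.81 and -0.56. Each such fit rests on 1 or 2 livers per group. Once the 8-locus level entered the fit they were -1.66, -1.01, -0.96, -0.87 and -0.53. Leaving out 1 library at a time, the macrophage median ran from -2.13 (without WT HFD 3) to -1.35 (without WT HFD 2), the cholesterol median from -0.94 to -0.46 (without WT HFD 2), and the endothelial from -1.16 to -0.74. Over the 10 macrophage genes with 5 CPM in at least 3 libraries the median was -0.97, all 10 negative.

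**Figure D5:**
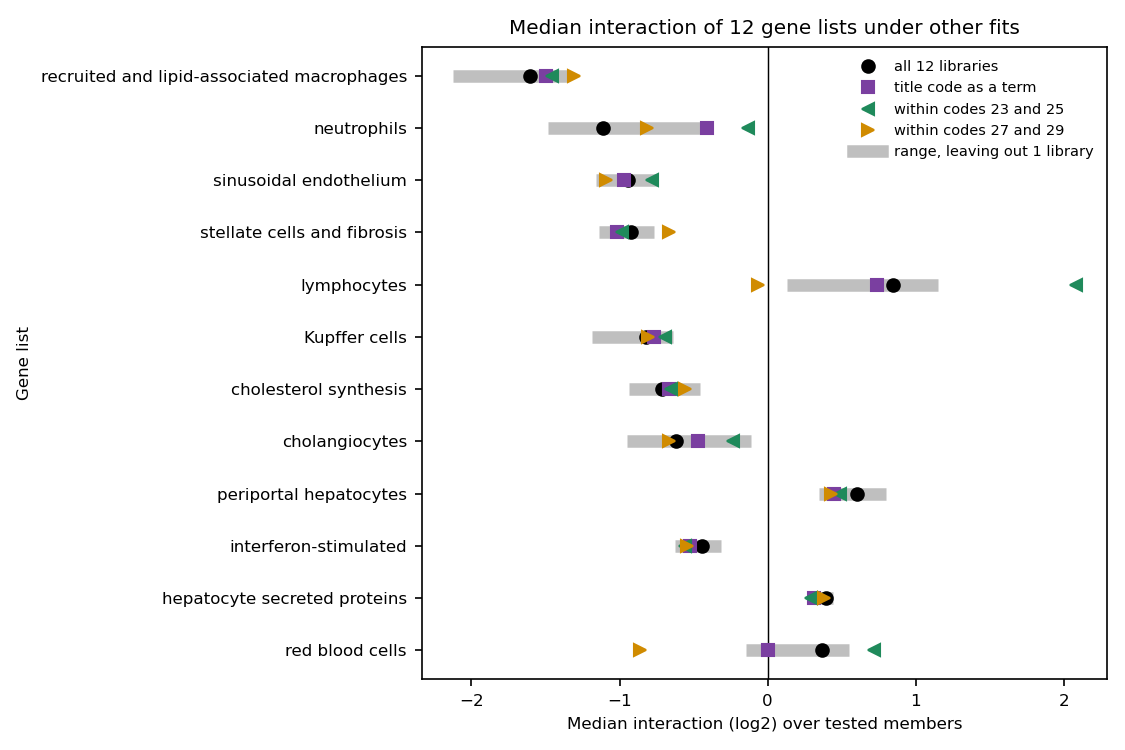
Median interaction (log2) of the 12 gene lists farthest from the median of all genes, in all 12 libraries (circles), with the title code as a term (squares), within each pair of codes (triangles), and its range when 1 library is left out (grey bars). Lists of macrophages, endothelium, stellate cells, Kupffer cells and cholesterol synthesis stay below 0 in all of these fits, while lymphocyte and red cell markers cross it.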

How the data were processed

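Liver RNA of 12 mice was read by QuantSeq 3′ sequencing on a NextSeq 500, 3 libraries in each of 4 groups. The authors deposited raw counts per gene, and per the submitters' processing notes these were made with cutadapt 1.9, HISAT2 and featureCounts on mm10. Not given in the sources used here are the versions of the last 2 tools, the annotation and the strand setting. Genes passing filterByExpr were scaled by TMM and fitted with 1 mean per group (edgeR 4.0.16 in R 4.3.3, robust quasi-likelihood, 8 residual degrees of freedom), and p-values were adjusted by Benjamini-Hochberg over 18098 genes. A gene was called at an adjusted p under 0.05. The fit was tested on simulated counts. Replicates differed by more than sampling noise (chi-square per degree of freedom 19.4 to 137), so none was counted as a duplicate.

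Named genes are Mlkl, the 12 in each direction with the smallest interaction p that have a proper symbol and 5 CPM in a group, the 3 members with the smallest p and the 2 most abundant of each list, and genes called for diet in both genotypes or the 5 largest in 1 alone. Oas1a, Oas3, Hmgcs1, Ifit1 and Stat2 are named outside that rule, for their promoters, after their values were seen. The comparison, members and lists were chosen with earlier results of these data known. Alternatives used limma-voom 3.58.1 and DESeq2 1.42.0, other scalings and filters, added terms, subsets by title code, and leaving out each library. DESeq2 kept its default filter on low mean counts, so its p-values were adjusted over fewer genes than those of edgeR. Gene positions are from GENCODE M21 (GRCm38), and promoter sequences are from RefSeq (GRCm38.p6).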

Additional observations from a re-analysis of the deposited data

How the results depend on the processing

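The interaction called 0 genes (edgeR) also under RLE size factors, library size alone, the filter of 5 CPM, dispersions without robust estimation, limma-voom and the title code as a term. It called 1 (Ttc39a) without the filter on low counts, 58 by DESeq2, 2 (Hamp and Hamp2) with the 8-locus term, 3 within the lower title codes, 4 within the higher, and 0 to 4 when 1 library was left out. WT diet calls were 1465 by DESeq2, 120 with the 8-locus term, 12 within the lower codes and 464 within the higher. Leaving out 1 library gave 63 to 1233, with 63 without WT HFD 2, 100 without WT ND 2, 113 without WT ND 3, 198 without WT ND 1, 359 without WT HFD 1 and 1233 without Mlkl-/- ND 1. Mlkl-/- diet calls were 100 with library size alone, 171 without the filter, 514 by DESeq2, 32 with the 8-locus term, 18 within the lower codes and 41 within the higher. Leaving out 1 library gave 13 to 729, with 13 without Mlkl-/- ND 3, 15 without Mlkl-/- HFD 1, 27 without Mlkl-/- ND 2, 28 without WT HFD 1, 37 without WT ND 1, 42 without WT ND 2, 43 without WT HFD 2 and 729 without Mlkl-/- ND 1. Fits within title codes and without a library use fewer samples, and the cause of the other shifts was not tested.

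Genes near 0 turned sign in some fits. Within the higher codes Cyp3a11 was at 0.0397, Ecm1 at -0.24, Fads1 at -0.46 and Slc40a1 at 0.58. With the code as a term Fads1 was at -0.0259 and Slc40a1 at 0.14, within the lower codes Bst2 was at -0.0393, and with library size alone Fads1 was at -0.10 and Tap1 at -0.00426. Leaving out 1 library, Cps1 ran from -0.0668 to 0.61, Ctsd from -0.20 to 0.00832, Cyp3a11 from -0.82 to 0.0125, Fads1 from -0.18 to 0.16, Scd1 from -0.0855 to 0.44, Slc40a1 from -0.30 to 0.19 and Tap1 from -0.0211 to 0.18. The neutrophil list held no gene at the filter of 5 CPM. No paired analysis was possible because the titles number the libraries consecutively and the groups share no replicate number. With 3 livers per group, low-count genes (Mlkl, Ttc39a, Mmp12, Gpnmb, Ripk3) have wide intervals, and a p that misses the threshold does not show equal responses.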
